A study of Rattus norvegicus with 24 samples.

Results

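The 64 genes described here encode heat shock proteins and J-domain chaperones, and they were measured in the medial gastrocnemius muscle of 24 rats. They were picked by name alone from the 10851 genes of the deposited count table, as every symbol that starts with Hspa, Hspb, Hspd, Hspe or Hsph, every symbol that starts with Dnaja, Dnajb or Dnajc followed by a number, and the 3 HSP90 genes Hsp90aa1, Hsp90ab1 and Hsp90b1. The pattern found 26 Hsp symbols and 38 Dnaj symbols (4 Dnaja, 9 Dnajb and 25 Dnajc), among them 2 pseudogene symbols and 2 genes, Hspbp1 and Hspbap1, whose products bind heat shock proteins and are not themselves chaperones of these families. All 64 passed the filter on low counts, and no count in the table was below 10. The inducible HSP70 gene Hspa1a and the class B co-chaperone Dnajb1, both widely used markers of the heat shock response, were not analysed here, so Hspa1b is the sole inducible HSP70 gene of the set.

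RNA-seq was performed on the left medial gastrocnemius, a mostly fast-twitch calf muscle, of male Wistar rats, to ask how heart failure-induced cachexia changes the muscle transcriptome with and without aerobic training. Control rats received saline and stayed sedentary (Sed, n = 6) or ran on a treadmill (Ex, n = 6). Cachectic rats received a single injection of monocrotaline, a plant alkaloid that causes pulmonary hypertension and right heart failure, and likewise stayed sedentary (CC-Sed, n = 6) or trained while the disease developed (CC-Ex, n = 6). Every rat, sedentary ones included, performed a maximal treadmill test days before the muscle was taken, and monocrotaline rats that died or lacked right ventricular remodelling had been removed by the authors, so both CC groups hold surviving rats with remodelling.

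Heat shock proteins keep other proteins folded. HSP70 binds exposed stretches of unfolded chains in a cycle driven by ATP, and J-domain proteins bring clients to HSP70 and trigger that cycle, each in its own compartment: the cytosol, the endoplasmic reticulum (ER) or the mitochondrion. HSP110 resets HSP70 by nucleotide exchange, HSP90 matures kinases and hormone receptors, HSP60 with its lid HSP10 folds proteins inside mitochondria, and the small heat shock proteins hold aggregating proteins, in muscle mostly at the Z-disc and along actin and desmin filaments. Cytosolic stress raises many of these genes through heat shock factor 1 at heat shock elements in their promoters, and misfolding in the ER raises the ER chaperones through ATF6 and XBP1 at ER stress elements.

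Those promoter elements are shown because they are the letters through which the cytosolic and ER stress responses are known to act, and 8 of the 64 genes held one. RefSeq promoter windows of the GRCr8 assembly, from 250 bases before to 50 bases after the transcription start, matched 49 of the 64 genes. The heat shock element was searched as 3 inverted units in a row, GAANNTTCNNGAA or TTCNNGAANNTTC, which are each other's reverse complement, and was present in 5 of the 49 windows (10.2%), against 0.437% of the 8699 windows of genes in the count table and 0.736% of all 27457 windows. The ER stress element was searched on both strands as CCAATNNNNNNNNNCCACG and was present in 3 of the 49 windows (6.12%), against 0.138% and 0.0765%. A match describes letters in a window and is not a measured binding site. Hspa1b and Hsp90aa1 had no window. In the stretches below, written in the direction of transcription, capitals mark the element and the flanks are in lower case.
Dnajc3, ER stress element 133 to 115 bases before the start, chr15:102432514-102432572, plus strand: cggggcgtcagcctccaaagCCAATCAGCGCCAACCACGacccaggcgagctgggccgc
Hspa5, ER stress element 43 to 25 bases before the start, chr3:38452953-38453011, plus strand: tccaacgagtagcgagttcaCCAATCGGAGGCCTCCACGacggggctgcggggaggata
Hsp90b1, first of its ER stress elements, 176 to 158 bases before the start, chr7:23012431-23012489, minus strand: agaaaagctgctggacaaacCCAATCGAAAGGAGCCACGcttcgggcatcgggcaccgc
Hspa8, heat shock element nearest the start, 55 to 43 bases before it, chr8:50080439-50080491, plus strand: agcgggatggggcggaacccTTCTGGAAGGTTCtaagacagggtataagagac
Hsph1, heat shock element 36 to 24 bases before the start, chr12:10427312-10427364, plus strand: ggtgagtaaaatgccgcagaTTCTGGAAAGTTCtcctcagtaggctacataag
Hspe1, 2 overlapping heat shock elements 65 to 48 bases before the start, chr9:64084242-64084299, plus strand: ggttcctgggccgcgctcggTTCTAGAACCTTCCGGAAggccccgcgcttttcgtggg

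Hspe1 and Hspd1 lie head to head, and the same letters form the element of Hspd1, 242 to 225 bases before its own start on the other strand. Hsp90b1 held another ER stress element 72 to 54 bases before the start and Hspa8 another heat shock element 213 to 201 bases before it. The fifth window with a heat shock element was that of Dnaja1, where it lay 9 to 21 bases after the start.

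Libraries held between 37816239 and 50350554 counts, with a median of 42891611, and the 64 genes together took between 0.465% and 0.986% of a library. Fast-fibre genes were abundant in every library (115086 to 272872 summed CPM over 10 of 12 listed markers, Ckm and Acta1 among them). The authors describe the gastrocnemius as holding more fast-twitch fibres. Slow-fibre markers (7 of 10 in the table) ran from 691 to 12048 summed CPM between rats, and none of them passed edgeR's test of monocrotaline. The group medians of that sum were 2124 (Sed), 6397 (CC-Sed), 3798 (Ex) and 5544 (CC-Ex), with overlapping ranges. By contrast, the authors, using DESeq2, reported Tnnc1, Tpm3, Tnni1, Myl3 and Atp2a2 as upregulated in CC-Sed. Why the outcomes differ was not tested. In the mean of the monocrotaline effects defined below, 3 of 6 fibroblast markers, 2 of 3 measured smooth muscle markers and 1 of 3 measured adipocyte markers were lower, 2 of 4 endothelial and 2 of 3 erythroid markers were higher, and none of 5 macrophage or 2 Schwann cell markers passed. Their part in the results below was not tested. In a whole-muscle library, fewer cells of a type and less RNA per cell cannot be told apart. CC-Ex rat 5 stood apart among the chaperones: it was the highest of its group for 35 of the 64 genes and the lowest for 18. CC-Sed rat 4 was the highest of its group for 24 genes and the lowest for 13, and Sed rat 5 for 23 and 13. By this count CC-Sed 4 was not set apart from Sed 5, and the count was not made over all genes. Results that rest on CC-Ex 5 or CC-Sed 4 are given with and without them, a choice made after their values were seen.

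Levels are given as CPM (counts scaled to library size) scaled by TMM, a factor that corrects for the composition of each library, and differences as Log2FC from edgeR. A gene passed the test at an adjusted p below 0.05 over all 10851 genes, and it was a differentially expressed gene (DEG) when the Log2FC was also at least 1 in size. Monocrotaline was compared within sedentary rats (Sed vs. CC-Sed), within trained rats (Ex vs. CC-Ex), and as the mean of these effects over all 24 rats, which shares its rats with both. Positive values mean higher in the monocrotaline rats, or in the trained rats where training was compared.

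Few chaperone genes moved with monocrotaline. In Sed vs. CC-Sed, 2 of the 64 genes passed, Dnajc3 upward and Hspbp1 downward, which is 3.125% of them beside 6.46% of all genes tested (4.30% higher and 2.16% lower). Unadjusted, 9 of the 64 had a p below 0.05, beside 28.4% of all genes. In Ex vs. CC-Ex, 0 of 64 passed edgeR's test beside 0.995% of all genes. There, 10 chaperones had an unadjusted p below 0.05 (22.6% of all genes did), the lowest adjusted p was 0.0713 for Dnajc9, DESeq2 called 6 genes, all higher (6.31% of all genes with that tool), and limma-voom called 8 (9.61% of all genes). The count in Sed vs. CC-Sed depended on single rats, from 0 without CC-Sed 3 or CC-Sed 6 to 6 without CC-Sed 4 or CC-Ex 5, and it was 15 with CC-Sed 4 and CC-Ex 5 both left out. The share of all genes called rose as well, to 15.9% without CC-Sed 4, 19.3% without CC-Ex 5 and 32% without both. For the fits that called 0 chaperones this share is not given. In Ex vs. CC-Ex the count was 5 without CC-Ex 4 (7.81% of all genes), 4 without CC-Ex 1 (4.6%), and 1 with both CC-Sed 4 and CC-Ex 5 left out (0.461%).

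In the mean of both effects 9 genes passed, 8 higher and 1 lower, or 14.1% beside 27.8% of all genes (17.2% higher and 10.6% lower). No chaperone was a DEG in any comparison, beside 1.87% of all genes in Sed vs. CC-Sed, 0.525% in Ex vs. CC-Ex and 2.88% in the mean. Unadjusted, 20 chaperones had a p below 0.05 in the mean, beside 42.4% of all genes. The median Log2FC of the 64 genes was -0.03 against 0.01 for all genes, with quartiles of -0.20 and 0.15. Without CC-Sed 4 the count was 18 (35.3% of all genes called) and without CC-Ex 5 it was 12 (24.1%). With both left out it was 19 (33.5%), 10 higher and 9 lower, which contained all 9 of the full set. The split of the calls depended on scaling: 8 higher and 1 lower (88.9% higher) with TMM, 10 and 4 (71.4%) with DESeq2, 8 and 0 (100%) with library totals, and 6 and 10 (37.5%) with upper-quartile scaling.

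**Figure D1:**
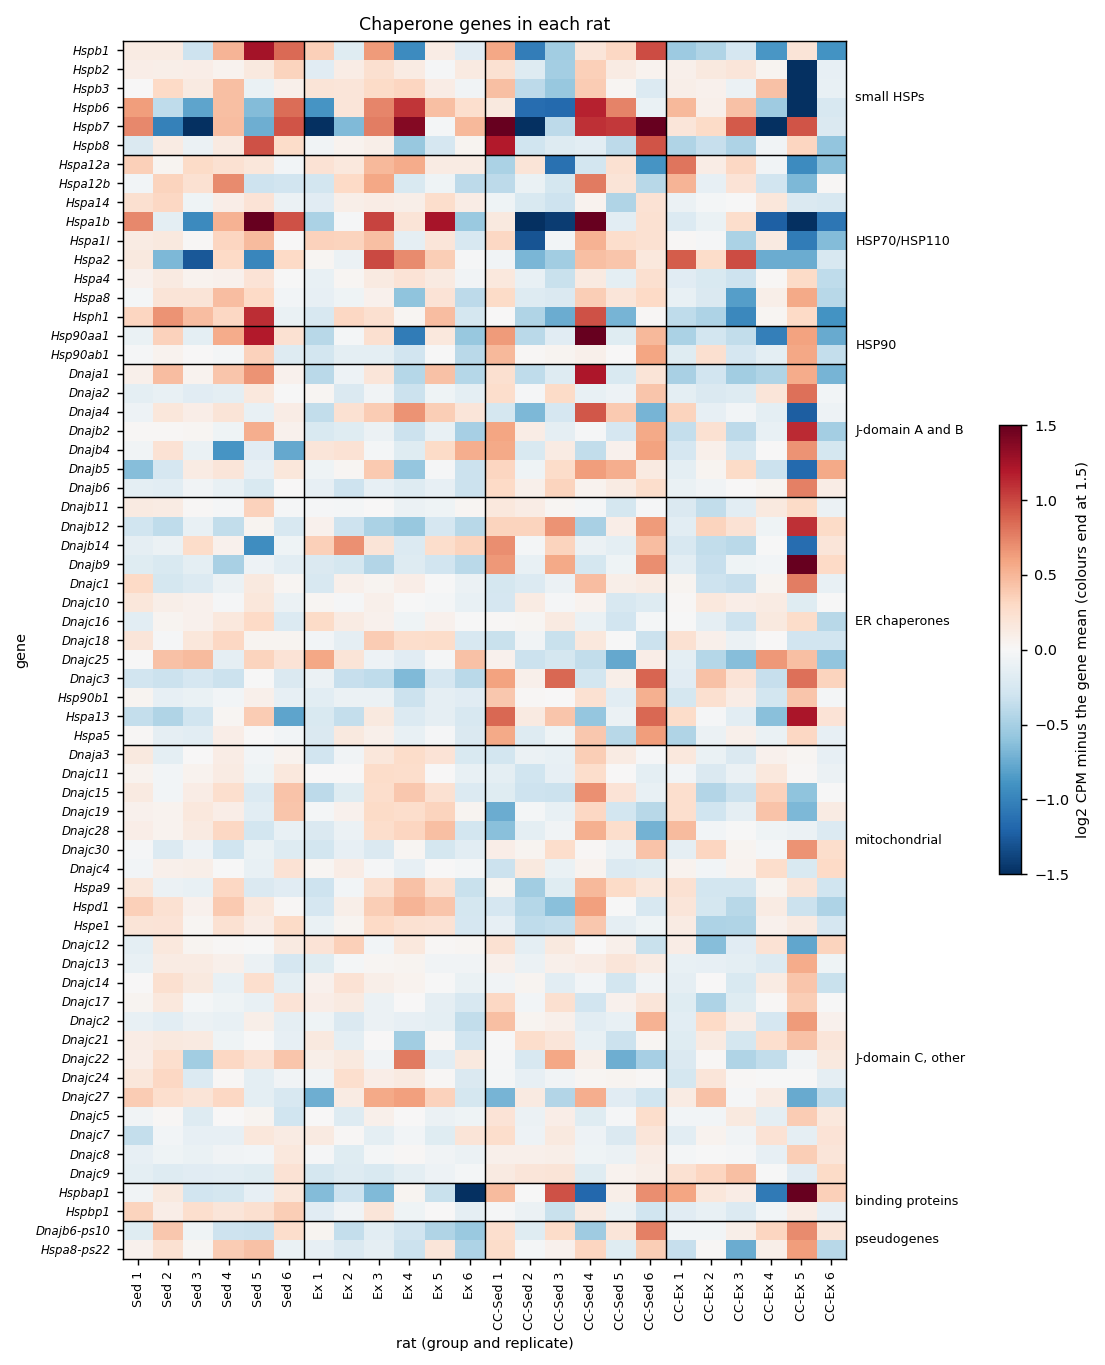
Each of the 64 genes (rows, by role) in each of the 24 rats (columns, by group), coloured by log2 CPM minus the mean of that gene over all rats, with the colour scale ending at 1.5 in both directions. The columns of CC-Sed 4 and CC-Ex 5 stand out from their groups, and the rows of Hspb7, Hspb6 and Hspa1b vary within all 4 groups.

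The heat map of all 64 genes shows how much rats of 1 group differed. The median SD of log2 CPM within groups was 0.30 for the chaperones and 0.30 for all genes. Hspb7 was the most variable, with an SD of 1.46, larger than that of 99.5% of all genes, followed by Hspa1b at 1.14 (98.6%) and Hspb6 at 0.80 (94.8%). Dnajc10 at 0.12 and Dnajc8 at 0.12 were the steadiest.

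**Figure D2:**
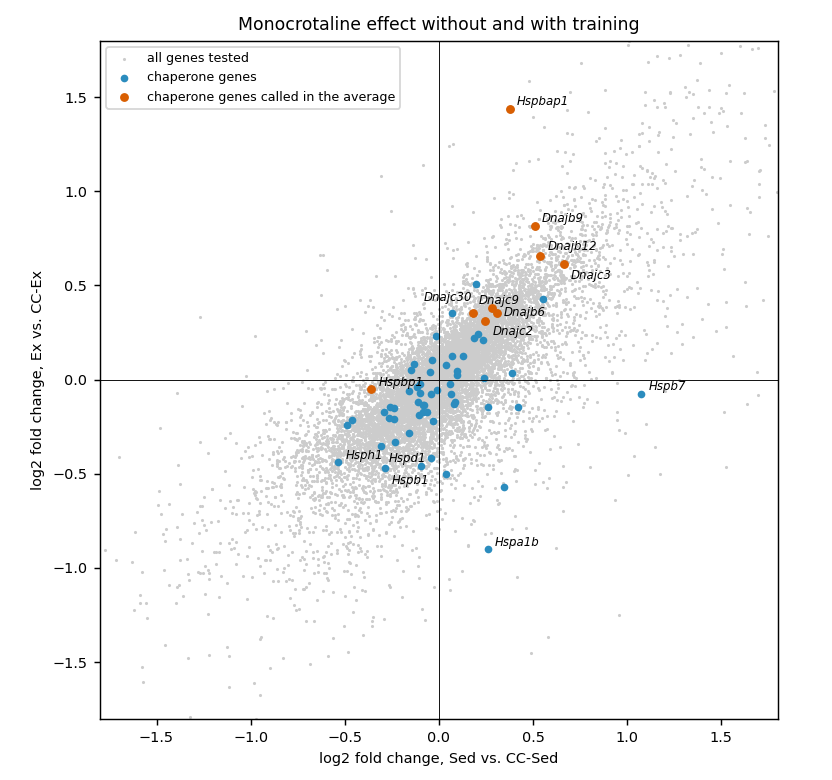
Log2FC of Sed vs. CC-Sed (x axis) against Log2FC of Ex vs. CC-Ex (y axis) for all genes (grey), the chaperone genes (blue) and the 9 that passed in the mean of both effects (orange); the axes end at 1.8, which leaves out 102 genes, none of them a chaperone. Of the 9, 8 lie at the upper right, Hspbp1 lies at the left near 0 on the y axis, and Hspa1b and Hspb7 lie far from the diagonal without passing.

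In that scatter the 2 axes compare different rats and share no control group. Of the 9 chaperones that passed, 7 carried J-domain names, and the others were the binding proteins Hspbp1 and Hspbap1. Those 7, out of 38 such genes, are near the 17.2% of all genes that were higher, so the count does not set J-domain genes apart. None of the HSP70, HSP110, HSP90, HSP60, HSP10 or small heat shock protein genes passed edgeR's test. DESeq2 called Hsp90b1 and Hspa13 higher and Hspa14, Hspd1 and Hsph1 lower in the same mean, and limma-voom called Hspa13 higher and Hspa4, Hspa14, Hspd1, Hspe1 and Hsph1 lower.

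Of the 13 ER chaperones, 3 were upregulated in the mean of the monocrotaline effects and none was downregulated, with a median Log2FC of 0.06, where 17.2% of all genes were higher. These are Dnajc3, Dnajb9 and Dnajb12. The ER median fell to -0.03 with upper-quartile scaling, while the same count of 3 passed upward and 2 passed downward.

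Dnajc3 encodes the luminal co-chaperone p58IPK, which works with BiP and restrains the ER stress kinase PERK. It was measured at 21.0 to 26.2 CPM in Sed (median 21.8) and at 21.6 to 48.1 CPM in CC-Sed (median 33.9). In the trained rats it ranged from 16.6 to 24.6 CPM in Ex (median 20.4) and from 20.7 to 46.5 CPM in CC-Ex (median 31.6). In all, 5 of 6 CC-Sed rats lay above the Sed median and all 6 CC-Ex rats above the Ex median, but the ranges overlapped, rat 4 of each CC group being the lowest. The Log2FC was 0.66 (SE 0.19, adjusted p = 0.0410) in Sed vs. CC-Sed, 0.61 (SE 0.19, adjusted p = 0.0823) in Ex vs. CC-Ex and 0.64 (SE 0.13, adjusted p = 0.00239) in the mean. The call in the mean held without any single rat, whereas that in Sed vs. CC-Sed was lost without any of the 6 Sed rats, Ex 6 or CC-Sed 1, 3 or 6, with adjusted p between 0.0100 and 0.128 over the 24 fits.

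Dnajb9 encodes ERdj4, which delivers misfolded proteins for ER-associated degradation and keeps the stress sensor IRE1 inactive. It spanned 22.8 to 30.2 CPM in Sed (median 28.3) and 26.5 to 51.9 CPM in CC-Sed (median 38.9). It spanned 23.6 to 27.97 CPM in Ex (median 26.3) and 25.1 to 120.5 CPM in CC-Ex (median 30.8), where rat 5 was the highest and the next rat reached 39.1 CPM. The Log2FC of the mean was 0.66 (SE 0.20, adjusted p = 0.0210), and without CC-Ex 5 it was 0.36 and still passed.

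Dnajb12 encodes an ER membrane protein whose J-domain faces cytosolic HSP70. Its CPM ran from 58.7 to 78.7 in Sed (median 63.4) and from 54.7 to 122 in CC-Sed (median 96.6). In the trained groups it ran from 51.7 to 80.1 in Ex (median 59.4) and from 68.9 to 163 in CC-Ex (median 91.1). CC-Sed 4 was the one CC-Sed rat below the Sed median, and all 6 CC-Ex rats lay above the Ex median. Averaged over both effects, the Log2FC was 0.60 (SE 0.13, adjusted p = 0.00396).

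The central ER chaperones did not pass. Hspa5 (BiP), the ER HSP70, was at 122 to 145 CPM in Sed and 102 to 211 CPM in CC-Sed, and at 117 to 151 CPM in Ex and 99.97 to 169 CPM in CC-Ex, with a mean Log2FC of 0.12 (SE 0.11, adjusted p = 0.393). Hsp90b1 (GRP94), the ER HSP90, had a mean Log2FC of 0.22 (SE 0.08, adjusted p = 0.0507) and Hspa13 one of 0.49 (adjusted p = 0.0536), both just short of the threshold, and each passed with DESeq2 (adjusted p = 0.0408 and 0.0399). Hsp90b1 passed without Sed 5, CC-Sed 2, 3 or 5 or CC-Ex 1 or 4, and Hspa13 without Sed 5, CC-Sed 4 or 5 or CC-Ex 3 or 4. Of the 3 genes whose printed promoters hold the ER stress element, Dnajc3 alone passed. The other ER genes, Dnajb11, Dnajb14, Dnajc1, Dnajc10, Dnajc16, Dnajc18 and Dnajc25, did not pass.

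Among the 7 cytosolic class A and B J-domain proteins, 1 was upregulated (17.2% of all genes were) and 5 had a higher level (51.9% of all genes). The median Log2FC was 0.21, with the same number of higher and lower genes under each scaling. The one that passed was Dnajb6, which blocks aggregation of polyglutamine proteins and acts with the co-chaperone BAG3 at the Z-disc. Dnajb6 was at 129 to 152 CPM in Sed (median 138) and at 156 to 191 CPM in CC-Sed (median 173). It was at 121 to 139 CPM in Ex (median 135) and at 141 to 255 CPM in CC-Ex (median 154). The groups did not overlap in either comparison. This held for 1 chaperone of 64 in each, beside 3.61% of all genes in Sed vs. CC-Sed and 1.08% in Ex vs. CC-Ex. Over all rats, its Log2FC was 0.33 (SE 0.08, adjusted p = 0.00621), and 0.23 without CC-Ex 5, the highest rat.

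Dnajb5, which had the highest mean count of its role, was at 136 to 240 CPM in Sed and 202 to 327 CPM in CC-Sed, at 141 to 278 CPM in Ex and 94.3 to 314 CPM in CC-Ex. Its mean Log2FC was 0.21 (SE 0.15, adjusted p = 0.293). Dnaja1, a partner of HSC70 in folding and mitochondrial import, had a mean Log2FC of -0.12 (SE 0.18, adjusted p = 0.632). It did not pass, but 2 of 10 alternatives called it lower, limma-voom and leaving out both CC-Sed 4 and CC-Ex 5. Over the 10, the adjusted p ran from 0.0153 to 0.991. Dnaja2, Dnaja4, Dnajb2 and Dnajb4 did not pass either.

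Of the 13 other class C J-domain proteins, 2 were upregulated, beside 17.2% of all genes. They were Dnajc9 and Dnajc2. Dnajc9, a chaperone of histones H3 and H4, was at 11.5 to 15.4 CPM in Sed (median 11.8) and 11.6 to 15.1 CPM in CC-Sed (median 14.2). It was at 11.0 to 12.9 CPM in Ex (median 11.7) and 11.7 to 18.0 CPM in CC-Ex (median 15.8). Sed 6 was far above the other Sed rats, of which the next reached 12.0 CPM. In the mean of both effects it had a Log2FC of 0.27 (SE 0.07, adjusted p = 0.0101).

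Dnajc2, which recruits HSP70 to the ribosome, was at 50.9 to 60.7 CPM in Sed and 50.8 to 81.7 CPM in CC-Sed, and at 43.9 to 54.4 CPM in Ex and 47.7 to 88.6 CPM in CC-Ex. Its mean Log2FC was 0.28 (SE 0.09, adjusted p = 0.0316), with an adjusted p above 0.05 without CC-Sed 1, CC-Sed 6, CC-Ex 5 or Ex 6 (highest 0.0755). Dnajc7, which passes clients between HSP70 and HSP90, showed no detectable change (mean Log2FC 0.06, SE 0.07, adjusted p = 0.546). Dnajc5, Dnajc8, Dnajc12, Dnajc13, Dnajc14, Dnajc17, Dnajc21, Dnajc22, Dnajc24 and Dnajc27 did not pass.

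Within the mitochondrion, 1 of 10 chaperones passed upward (17.2% of all genes did) and the other 9 had lower levels in the mean. Of all genes, 51.9% had higher levels in that mean. The median Log2FC of the 10 was -0.10, and 6 were lower when library totals were used. The upregulated gene was Dnajc30, a J-domain protein of the inner membrane linked to ATP synthase and complex I. It was at 11.0 to 13.3 CPM in Sed (median 12.2) and 12.7 to 18.1 CPM in CC-Sed (median 14.1). It was at 11.1 to 13.7 CPM in Ex (median 11.8) and 12.3 to 21.5 CPM in CC-Ex (median 15.0). All 6 rats of each CC group exceeded the median of their controls. Averaged over both effects, the Log2FC was 0.33 (SE 0.08, adjusted p = 0.00655).

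Hspd1 (HSP60) and Hspe1 (HSP10), the chaperonin pair transcribed from the shared promoter shown above, had lower levels that did not pass edgeR's test. Hspd1 was at 162 to 210.5 CPM in Sed (median 183) and 104 to 245 CPM in CC-Sed (median 135), and at 134 to 229 CPM in Ex (median 189) and 117 to 181 CPM in CC-Ex (median 131). CC-Sed 4 was the highest of all rats, and the next CC-Sed rat, at 159 CPM, lay below every Sed rat. Over all rats, its Log2FC was -0.33 (SE 0.13, adjusted p = 0.0573) for Hspd1 and -0.23 (SE 0.09, adjusted p = 0.0650) for Hspe1. Without CC-Sed 4 these were -0.43 and -0.29, and both passed, with adjusted p of 0.00580 and 0.0116. Both also passed without Ex 6, CC-Ex 1 or CC-Ex 4, Hspd1 without Ex 1 and Hspe1 without CC-Ex 5. Of the 10 alternatives, 7 called Hspd1 lower, DESeq2, upper-quartile scaling, limma-voom and the replicate block among them (adjusted p from 0.00769 to 0.154), and 5 called Hspe1 lower (0.00274 to 0.257). Hspa9 (mortalin), the HSP70 of the import motor, had a mean Log2FC of -0.02 (SE 0.12, adjusted p = 0.932), a sign that turned with library totals. Dnaja3, Dnajc4, Dnajc11, Dnajc15, Dnajc19 and Dnajc28 did not pass.

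Both binding proteins passed, in opposite directions. Hspbp1 encodes a nucleotide exchange factor that binds the ATPase domain of HSP70. It was at 13.5 to 16.4 CPM in Sed (median 15.0) and at 10.0 to 13.8 CPM in CC-Sed (median 11.8), so that all 6 CC-Sed rats lay below the Sed median and only CC-Sed 4 reached into the Sed range. In Ex it was already at 11.2 to 14.3 CPM (median 12.1), and in CC-Ex at 11.0 to 13.6 CPM (median 11.6). The Log2FC was -0.36 (SE 0.09, adjusted p = 0.0210) in Sed vs. CC-Sed, -0.05 (SE 0.09, adjusted p = 0.730) in Ex vs. CC-Ex and -0.20 (SE 0.06, adjusted p = 0.0189) in the mean. The difference between these effects was 0.31 (SE 0.12) with an unadjusted p of 0.0199 and an adjusted p of 1.00, so a difference between sedentary and trained rats did not pass. The Sed vs. CC-Sed call was lost without CC-Sed 3 or CC-Sed 6 (adjusted p = 0.0517 and 0.0549).

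Hspbap1 encodes a protein that associates with HSPB1. It was at 1.39 to 1.91 CPM in Sed (median 1.60), 0.753 to 3.29 CPM in CC-Sed (median 2.09), 0.596 to 1.75 CPM in Ex (median 1.22) and 0.816 to 10.3 CPM in CC-Ex (median 2.04). CC-Ex 5 alone reached 10.3 CPM and the next CC-Ex rat 2.57 CPM. In the mean of both effects it had a Log2FC of 0.91 (SE 0.31, adjusted p = 0.0318), the largest of the 9 in size, and without CC-Ex 5 it was 0.48 and no longer passed (adjusted p = 0.0877). The call was also lost without Ex 6, CC-Sed 1, CC-Sed 3 or CC-Sed 6.

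**Figure D3:**
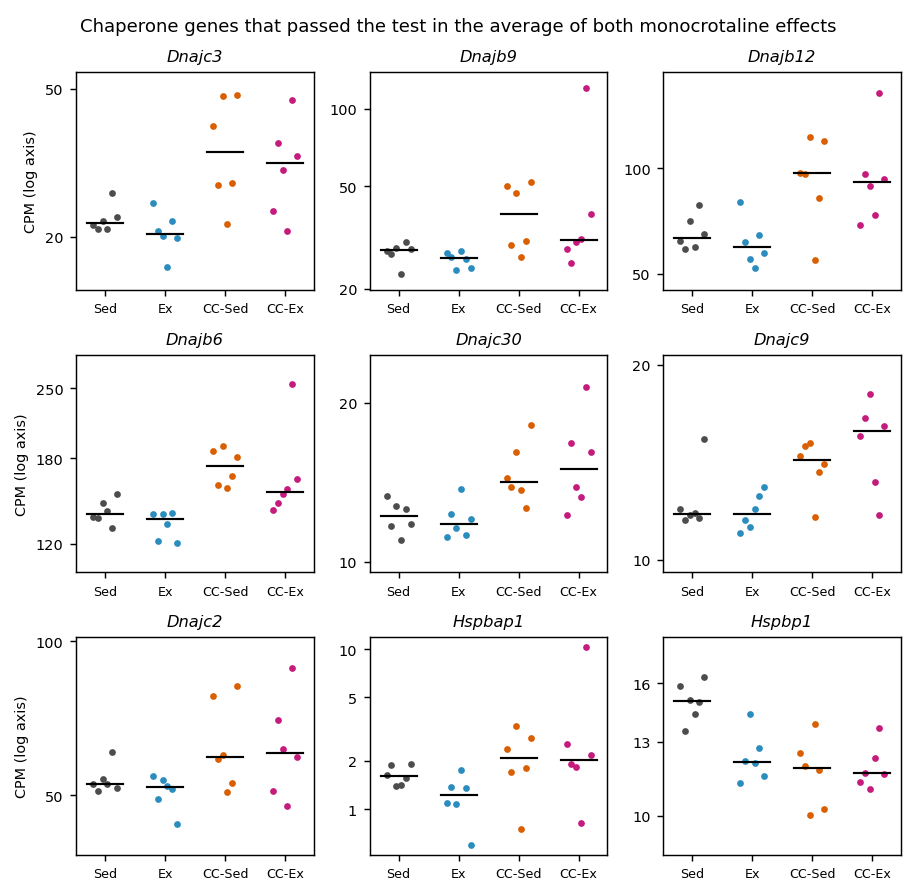
CPM on log axes in each rat (points) and the median of each group (bars) for the 9 genes that passed in the mean of the monocrotaline effects. In the 8 higher genes the CC medians lie above those of Sed and Ex, only Dnajb6 shows no overlap between CC rats and their controls, and CC-Ex 5 is the top point for Dnajb9, Dnajb12, Dnajb6, Dnajc30, Dnajc2 and Hspbap1.

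The panels of the 9 genes show how wide the CC groups were. CC-Sed spread further than Sed for Dnajc3, Dnajb9, Dnajb12 and Dnajc2, and CC-Ex spread further than Ex for the same genes.

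None of the 9 cytosolic HSP70 and HSP110 genes passed edgeR's test, while DESeq2 called 2 of them lower, Hsph1 and Hspa14. In the mean, 8 of 9 had lower levels (7 with library totals), with a median Log2FC of -0.19, while 51.9% of all genes had higher levels. Hsph1 (HSP105), the exchange factor and disaggregase partner of HSP70, came nearest. It was at 61.1 to 141 CPM in Sed (median 85.8) and 39.004 to 127 CPM in CC-Sed (median 56.8), and at 54.6 to 89.9 CPM in Ex (median 72.0) and 33.5 to 80.5 CPM in CC-Ex (median 48.9). All 4 ranges overlapped, with CC-Sed 4 at the top of its group. The mean Log2FC was -0.49 (SE 0.19, adjusted p = 0.0566), and without CC-Sed 4 it was -0.64 with an adjusted p of 0.00544. It also passed without Sed 6, CC-Ex 4 or CC-Ex 5, and lower under 6 of 10 alternatives, DESeq2 (adjusted p = 0.0405) and limma-voom among them (adjusted p from 6.75e-04 to 0.187 over the 10).

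Hspa1b, the stress-inducible HSP70, ranged over a factor of 36.4 among the 24 rats. It was at 26.6 to 180.3 CPM in Sed (median 79.8) and 11.6 to 420.0 CPM in CC-Sed (median 51.8), and at 35.2 to 122 CPM in Ex (median 55.0) and 17.5 to 62.0 CPM in CC-Ex (median 34.6). CC-Sed 4 was the rat at 420.0 CPM, and the next in that group was at 60.6 CPM. The mean Log2FC was -0.32 (SE 0.45, adjusted p = 0.608) with all rats and -1.02 (adjusted p = 0.0240) without CC-Sed 4. Reads of Hspa1b could also come from its near-identical neighbour Hspa1a, so its level is uncertain to that extent.

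The constitutive Hspa8 (HSC70), with 2 heat shock elements in its promoter window, did not move detectably, with a mean Log2FC of -0.01 (SE 0.13, adjusted p = 0.978) and a sign that turned with library totals. Hspa4, an HSP110 relative with the highest mean count of this role, had a mean Log2FC of -0.13 (SE 0.08, adjusted p = 0.211), and it passed without CC-Ex 5 (adjusted p = 0.0396). Hspa2, Hspa12a, Hspa12b, Hspa14 and Hspa1l did not pass. The cytosolic HSP90 genes did not pass either: Hsp90ab1, the constitutive form, had a mean Log2FC of 0.21 (SE 0.11, adjusted p = 0.147) and Hsp90aa1, the inducible form, one of -0.01 (SE 0.23, adjusted p = 0.983) that was positive with library totals.

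**Figure D4:**
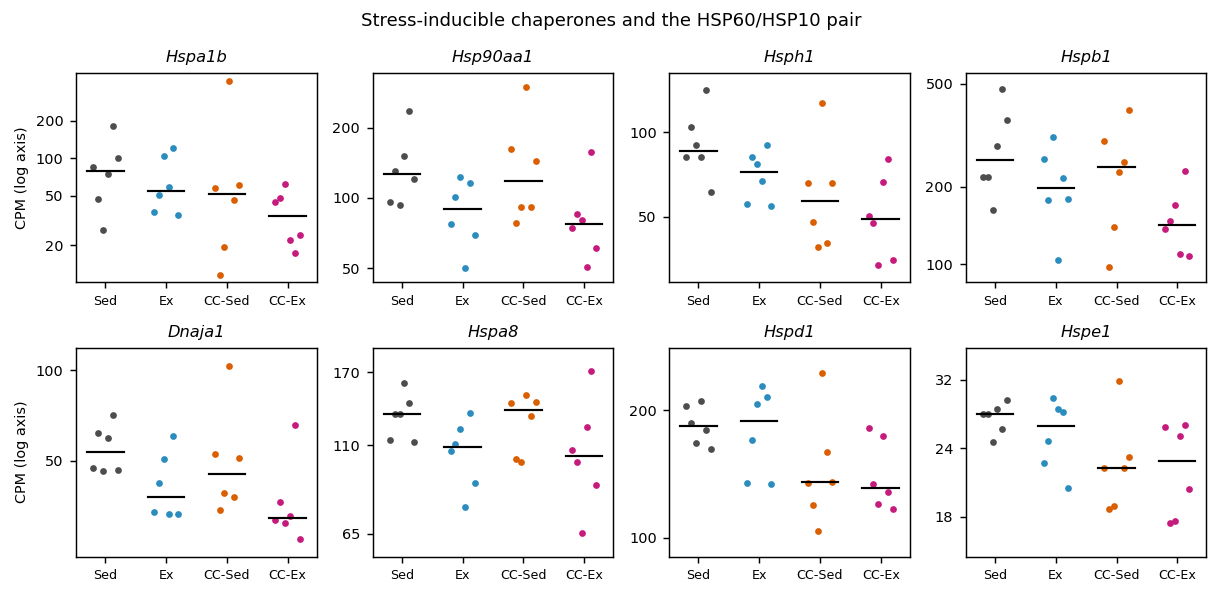
CPM on log axes in each rat (points) and the median of each group (bars) for stress-inducible chaperones, the constitutive Hspa8 and the HSP60/HSP10 pair Hspd1 and Hspe1. CC-Sed 4 is the top CC-Sed point in all 8 panels but that of Hspb1, reaching 420.0 CPM for Hspa1b, and the CC-Ex median is the lowest of the 4 groups for Hspa1b, Hsp90aa1, Hsph1, Hspb1, Dnaja1, Hspa8 and Hspd1.

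These panels show that a single CC-Sed rat carried high levels of several stress-inducible chaperones together. In CC-Sed 4, Hsp90aa1 reached 298 CPM (next rat 161 CPM), Dnaja1 103 CPM (next rat 52.5 CPM) and Hsph1 127 CPM (next rat 66.1 CPM). The ER genes Dnajc3, Dnajb9, Dnajb12 and Hspa13 were the lowest of CC-Sed in the same rat, while Dnajc1 (9.07 CPM) and Dnajc18 (14.7 CPM) were the highest. The other ER chaperones lay in between, Hspa5 and Hsp90b1 among them. What distinguished this rat was not tested.

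Whether Hspa1b varied together with the other chaperones was asked across the 24 rats, on deviations from each group's mean, so that group differences do not enter. Of 63 genes, 9 were correlated with Hspa1b at an adjusted p below 0.05 by Pearson's r, all positively, over a family of 127 relations that includes those with fibre type below. Genes outside the set were not correlated with Hspa1b, so this count has no background share and does not set the chaperones apart. Hspb6 had r = 0.69 (permutation p = 1.0e-04, adjusted 0.00175) and Spearman's rho = 0.67 (permutation p = 4.7e-04, adjusted 0.00543). Hsp90aa1 had r = 0.65 (permutation p = 5.7e-04, adjusted 0.00586) and rho = 0.58 (permutation p = 0.00341, adjusted 0.0333), and Dnaja1 had r = 0.61 (permutation p = 0.00212, adjusted 0.0168) and rho = 0.55 (permutation p = 0.00614, adjusted 0.0487). Only 4 of the 9 passed by both measures, these and Hspa2. Without the rats farthest from the median, CC-Sed 4 and CC-Sed 2, r was 0.60 for Hspb6, 0.44 for Hsp90aa1 and 0.29 for Dnaja1, so the relation with Dnaja1 rested on those rats. Within CC-Ex alone (n = 6), r was -0.16 for Hsp90aa1 and -0.49 for Dnaja1. Hspa1b itself was correlated with the slow-fibre score described below (r = 0.52), as were Hspb6 and Hspa2. How far their relation with Hspa1b follows that score was not tested.

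The 6 small heat shock proteins did not pass in any comparison. In the mean, 5 of 6 had lower levels (4 with library totals), with a median Log2FC of -0.18, while 51.9% of all genes had higher levels. Hspb1 (HSP27), which binds actin and desmin, had a mean Log2FC of -0.38 (SE 0.22, adjusted p = 0.190). Hspb6 (HSP20) had -0.23 (SE 0.29, adjusted p = 0.564) and Hspb8 (HSP22), the partner of BAG3 in chaperone-assisted autophagy, -0.02 (SE 0.18, adjusted p = 0.931), positive with library totals. Hspb7, a filamin C-binding protein of heart and muscle, had 0.50 (SE 0.47, adjusted p = 0.433), and Hspb2 and Hspb3 did not pass.

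Hspb7 showed the largest positive Log2FC of the set in Sed vs. CC-Sed, 1.07 (SE 0.68), and an adjusted p of 0.296. It was at 71.4 to 743 CPM in Sed (median 382), 60.4 to 1657 CPM in CC-Sed (median 816), 89.7 to 1002 CPM in Ex (median 458) and 50.02 to 741 CPM in CC-Ex (median 454). The ranges of all 4 groups overlapped, although 4 of 6 CC-Sed rats, at 805 CPM or more, lay above the highest Sed rat.

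**Figure D5:**
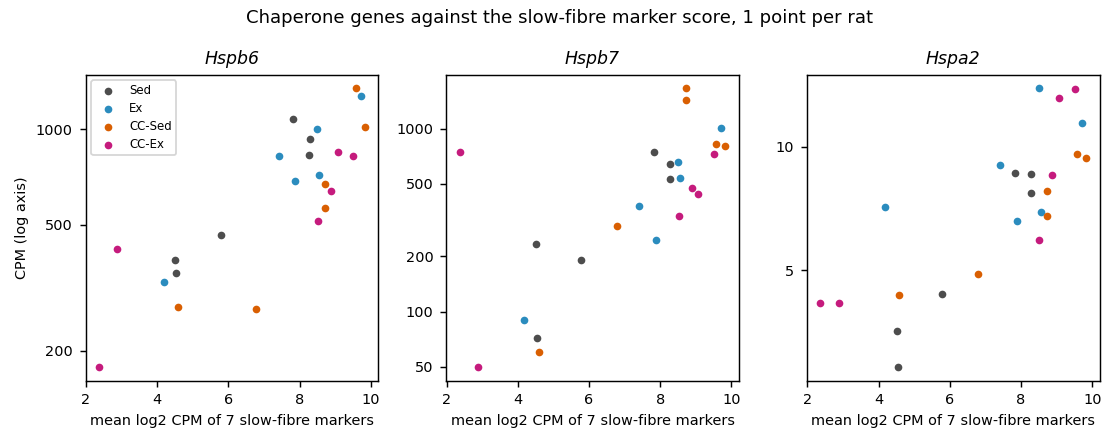
CPM on a log axis of Hspb6, Hspb7 and Hspa2 against the mean log2 CPM of 7 slow-fibre markers, with 1 point per rat coloured by group. Hspb6 is higher in rats with a higher score within each group, whereas CC-Ex 5, the rat with the lowest score of 2.36, has 741 CPM of Hspb7, the highest of its group.

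The plots against the slow-fibre score show what these genes shared within groups. The score, the mean log2 CPM of Myl3, Tnnc1, Tnni1, Tpm3, Atp2a2, Casq2 and Myh7b, ran from 2.36 in CC-Ex 5 to 9.83 in CC-Sed 5. On deviations from group means, 13 of the 64 genes were correlated with it at an adjusted p below 0.05, 6 positively and 7 negatively, and 11 passed by both measures. The relation was not computed for genes outside the set. These counts therefore have no background share and do not set the chaperones apart from other genes. Hspb6 had r = 0.88 and rho = 0.85, each with a permutation p of 1e-05, the smallest that 100000 permutations can give (adjusted 3.2e-04 and 6.3e-04). Hspa2, a constitutive HSP70, had r = 0.83 and rho = 0.82 with the same permutation p values. Hspb7 had r = 0.71 (permutation p = 3.1e-04, adjusted 0.00437) but rho = 0.53 (permutation p = 0.00926, adjusted 0.0588). Without CC-Ex 5 and CC-Ex 4, the rats farthest from the median score, r was 0.90, 0.79 and 0.85.

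All 7 genes with a negative relation carried J-domain names, as 38 of the 64 genes do. Dnajc16 had r = -0.76 (permutation p = 1e-05) and rho = -0.71 (permutation p = 1.2e-04), and Dnajc21 had r = -0.76 and rho = -0.79. Dnajc25, Dnajb11, Dnajc14, Dnaja2 and Dnajb12 followed, and Dnaja4, Hspb2 and Hspa1b were the other positive ones. These points share 1 library per rat, and how much of a relation comes from the share of slow fibres in the sampled piece was not tested. With the score as a covariate, 16 chaperones passed in the mean of the monocrotaline effects, beside 36% of all genes. Of the 16, 12 were higher and 4 lower, and all 9 named above were among them.

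Training was compared within control rats (Sed vs. Ex) and within monocrotaline rats (CC-Sed vs. CC-Ex). No chaperone passed edgeR's test in either, nor did any other gene, so the background was 0 of 10851 in both. DESeq2 and limma-voom likewise called 0 chaperones. The share of all genes called by these tools is not given here, so their counts of 0 do not set the chaperones apart. At an unadjusted p below 0.05 there were 2 chaperones in Sed vs. Ex, beside 118 genes in all (1.09%), namely Hspbp1 (Log2FC -0.28, SE 0.09) and Dnajb4 (0.43, SE 0.21). In CC-Sed vs. CC-Ex there were 5, beside 234 genes in all (2.16%).

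Those 5 were all lower in the trained rats: Hspa1b, Hsp90aa1, Hspb1, Hspb8 and Dnajb14. The Log2FC was -1.49 (SE 0.65) for Hspa1b, -0.77 (SE 0.32) for Hsp90aa1, -0.65 (SE 0.31) for Hspb1, -0.56 (SE 0.26) for Hspb8 and -0.52 (SE 0.21) for Dnajb14, each with an adjusted p of 1.00. Without CC-Sed 4 it was -0.10 for Hspa1b and -0.42 for Hsp90aa1, and without CC-Sed 1 it was -0.29 for Hspb8. Hspb1 was at 97.7 to 397 CPM in CC-Sed (median 238) and 107 to 229 CPM in CC-Ex (median 142), with all 6 CC-Ex rats below the CC-Sed median. In Sed vs. Ex, Hsp90aa1 had a Log2FC of -0.63 (SE 0.32), Hspb1 of -0.47 (SE 0.31), Dnaja1 of -0.39 (SE 0.25) and Hspa1b of -0.33 (SE 0.64), none of which passed. Without Sed 5 these were -0.41 for Hsp90aa1, -0.26 for Hspb1 and 0.033 for Hspa1b. Dnajb14 had a higher median in Ex (2.16 CPM) than in Sed (1.67 CPM).

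By role, all 6 small heat shock proteins and both cytosolic HSP90 genes had lower levels in CC-Ex than in CC-Sed under each scaling, with medians of -0.42 and -0.49, and none passed. Of all genes, 53.0% had higher levels in CC-Ex. The groups did not overlap for 1 chaperone in Sed vs. Ex (Dnajb2), beside 0.138% of all genes, and for 0 chaperones in CC-Sed vs. CC-Ex, beside 0.00922%.

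The interaction asked whether the monocrotaline effect differed between trained and sedentary rats. No chaperone passed edgeR's test, nor did any other gene. DESeq2 and limma-voom called 0 chaperones, and their share of all genes is again not given. At an unadjusted p below 0.05 there were 2, Dnajb14 (-0.92, SE 0.30), which was higher in CC-Sed than Sed and lower in CC-Ex than Ex, and Hspbp1, described above, beside 154 genes in all (1.42%).

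The 2 pseudogene symbols, Hspa8-ps22 and Dnajb6-ps10, did not pass. Hspa8-ps22 had a mean Log2FC of 0.03 (SE 0.12, adjusted p = 0.848), negative with upper-quartile scaling. Their reads can be shared with the parent genes Hspa8 and Dnajb6, so their values are uncertain.

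Genes that work with these chaperones but carry other names were counted too, and their counts stand beside 17.2% of all genes higher and 10.6% lower in the mean. Of 31 regulators and co-chaperones of HSP70 and HSP90, 7 were upregulated and 6 downregulated in the mean of the monocrotaline effects, with a median Log2FC of 0.06. The largest was Fkbp5, an HSP90 co-chaperone of the glucocorticoid receptor that glucocorticoids induce. It was at 10.5 to 66.4 CPM in Sed and 83.5 to 205 CPM in CC-Sed, with no overlap, and at 16.9 to 58.9 CPM in Ex and 46.9 to 246 CPM in CC-Ex, for a mean Log2FC of 1.81 (SE 0.30, adjusted p = 5.96e-04). Hsf2, a heat shock transcription factor, had a mean Log2FC of 0.94 (SE 0.26, adjusted p = 0.0120), whereas Hsf1 did not pass. Stip1, the adaptor that joins HSP70 to HSP90, had -0.38 (SE 0.10, adjusted p = 0.0114). The other genes that passed were Bag2, Bag6, Ptges3, Sugt1 and Grpel1 upward and Fkbp4, Fkbp8, Chordc1, Cacybp and Smyd1 downward.

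Of 23 genes of the ER unfolded protein response, 7 were upregulated and 3 downregulated, with a median Log2FC of 0.15. Edem1, which sorts misfolded glycoproteins for degradation, rose from 4.38 to 6.43 CPM in Sed to 6.66 to 33.7 CPM in CC-Sed, without overlap, and was at 4.03 to 6.94 CPM in Ex and 4.10 to 91.8 CPM in CC-Ex, where CC-Ex 5 was the highest. Its mean Log2FC was 2.08 (SE 0.42, adjusted p = 0.00185), and 1.45 without CC-Ex 5. Calr, the luminal lectin chaperone calreticulin, had -0.22 (SE 0.08, adjusted p = 0.0349), a call lost without Sed 5, Ex 1, CC-Sed 3 or 5 or CC-Ex 6 (highest adjusted p of these 0.0613) and with library totals (0.224), library number (0.107) or the replicate block (0.0567). Xbp1, Ern1, Herpud1, Canx, P4hb and Ppp1r15a were the others upregulated, and Pdia4 and Pdia6 the others downregulated.

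Of 7 measured family members with other names, Sec63 and Gak, both with J-domains, were upregulated and none was downregulated, beside the same 17.2% and 10.6% of all genes. These lists, and the markers used above, were chosen with earlier results of these data in view, and their counts are descriptions.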

How the data were processed

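Poly-A stranded RNA-seq libraries from 24 rats, 6 per group, were used. The authors trimmed reads with Trim Galore, quantified transcripts with Salmon against mRatBN7.2 and deposited estimated counts per gene, and the authors' own tests used DESeq2 1.44.0. Counts were rounded to whole numbers. In R 4.3.3, edgeR 4.0.16 quasi-likelihood tests with TMM scaling were fitted to all 10851 genes and 24 rats, with Benjamini-Hochberg adjustment over all genes, and filterByExpr removed no gene. The 6 contrasts were tested together. Log2 CPM used a prior count of 2. Estimated counts carry no interval of their own, so precision rests on the spread between the 6 rats of a group. Correlations used 100000 permutations. Alternatives were DESeq2 1.42.0, limma 3.58.1 (voom with sample weights), other scalings and filters, a replicate block, library number or slow-fibre score as covariates, only the compared rats, and leaving out each rat. Library number is the first number of each library name. It ran from 9 to 24 in Sed, 7 to 23 in Ex, 4 to 21 in CC-Sed and 1 to 14 in CC-Ex. It therefore partly follows monocrotaline, and that fit cannot fully separate them. The fitting code was tested on simulated data. Genes named with values were those that passed in a comparison, the gene of highest mean count in each role, and a fixed list of 18 chaperones, of which 2 were absent from the table. Others named with values, such as Hspa13, Hspa2, Dnajb4, Dnajb14 and genes outside the pattern, were chosen after their values were seen. Members and lists were chosen with earlier results of these data known.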

Additional observations from a re-analysis of the deposited data

Results flagged for a closer look

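The 28 chaperone genes described with values were looked at in each of the 4 groups of 6 rats, on the log2 CPM scale. By Dixon's test 8 values of 7 genes lay far from the other rats of their group, 7.14% of these gene and group pairs, where chance gives about 1 in 20. CC-Ex 5 held 3 of them: Dnajb9 at 120.5 CPM (next rat 39.1), Dnajb6 at 255 CPM (next rat 163) and Dnaja1 at 65.5 CPM (next rat 36.5). Sed 5 held Dnajc3 at 26.2 CPM (next rat 22.6) and Dnajc2 at 60.7 CPM (next rat 53.7). Sed 6 held Dnajc9 at 15.4 CPM (next rat 12.0). On the low side were Dnajb9 in Sed 4 at 22.8 CPM (next rat 27.2) and Hspb7 in CC-Ex 4 at 50.02 CPM (next rat 332).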

How the results depend on the processing

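Dnajc3, Dnajb12, Dnajb6, Dnajb9 and Dnajc30 passed in the mean of the monocrotaline effects under all 10 alternatives and without any single rat. Percentages in brackets are the share of all genes called in the same fit, which is not given for counts of 0. The number of chaperones passing in that mean was 14 with DESeq2 (32.1%), 16 with upper-quartile scaling (27%) and 19 with limma-voom (36.4%). It was 16 with the slow-fibre covariate (36%) and 19 with CC-Sed 4 and CC-Ex 5 both left out (33.5%). With single rats left out it ran from 7 (20.6%) to 18 (35.3%). In Sed vs. CC-Sed it was 0 with library totals, 8 with limma-voom (22.8%), 4 with the slow-fibre covariate (13.2%) and 15 with both rats left out (32%). With single rats left out it was 0 to 6, the 6 without CC-Sed 4 (15.9%) or CC-Ex 5 (19.3%). In Ex vs. CC-Ex it was 6 with DESeq2 (6.31%), 8 with limma-voom (9.61%), 1 with the slow-fibre covariate (1.45%) and 1 with both rats left out (0.461%). With single rats left out it was 0 to 5, the 5 without CC-Ex 4 (7.81%). The number of DEGs was 1 in Ex vs. CC-Ex with DESeq2 and 1 in the mean with library number as a covariate, and 0 to 1 in each with single rats left out. Why these counts differ was not tested.

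Small differences changed sign. In the mean, Hspa8-ps22 was -0.058 with upper-quartile scaling, -0.12 with limma-voom and -0.0778 with both rats left out (-0.079 to 0.087 with single rats left out). Dnajc7 was -0.014 with upper-quartile scaling and Hspa5 -0.012 with limma-voom. With library totals and library number, Hspa9 was 0.036 and 0.046 (single rats -0.063 to 0.033), Hspb8 0.042 and 0.063 (-0.17 to 0.073), Hspa8 0.047 and 0.051 (-0.11 to 0.050) and Hsp90aa1 0.040 and 0.14 (-0.18 to 0.10). With the slow-fibre covariate Hspa8 was 0.0059 and Hsp90aa1 0.0034. Hspbp1 in Ex vs. CC-Ex was 0.011 with library totals. Hspa1b was 0.072 in Sed vs. Ex with limma-voom (single rats -0.58 to 0.033) and, in CC-Sed vs. CC-Ex, 0.030 with limma-voom and 0.046 with both rats left out.

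Dnajc3 in Sed vs. CC-Sed was lost with library totals (adjusted p = 0.0649), as was Hspbp1 there (0.0682) and in the mean (0.112). Dnajc9 (0.0801) and Dnajc2 (0.0659) were lost in the mean with upper-quartile scaling, and Dnajc2 (0.0563), Hspbp1 (0.0775) and Stip1 (0.0542) with library number. With the replicate number as a block, 2 chaperones passed in Sed vs. CC-Sed (5.1% of all genes), 0 in Ex vs. CC-Ex (share not given) and 11 in the mean (25.5%). Hspbap1 was lost in the mean with that block (Log2FC 0.73, adjusted p = 0.0850). The mean correlation of same-numbered rats' deviations was 0.0947 between Sed and CC-Sed (-0.505 to 0.357 over 6 pairs). Between Ex and CC-Ex it was -0.172 (-0.423 to 0.152). With so few pairs and such a spread, these values cannot settle whether the numbers pair the rats. With 6 rats a group, the width of the CC groups limits what could be detected.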

Other observations

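Protein folding and quality control genes outside the heat shock families were counted in the mean of the monocrotaline effects, without a test of the lists themselves and beside 17.2% of all genes higher and 10.6% lower. Of 9 mitochondrial protease and stress genes, Clpx and Yme1l1 were upregulated and none was downregulated, with a median Log2FC of 0.12. Clpx, the unfoldase subunit of the matrix protease ClpXP, was at 60.3 to 82.2 CPM in Sed and 91.7 to 154 CPM in CC-Sed, without overlap, and at 67.0 to 102 CPM in Ex and 76.4 to 149.7 CPM in CC-Ex. Its mean Log2FC was 0.76 (SE 0.11, edgeR adjusted p = 2.43e-04), and it passed under every alternative run and without any single rat. Of 13 measured subunits of the cytosolic chaperonin TRiC and of prefoldin, which fold actin and tubulin, Tcp1, Cct2, Cct4 and Pfdn2 were upregulated and Pfdn4 was downregulated, with a median Log2FC of 0.12.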
